A study of Homo sapiens with 12 samples.

Results

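The response to interferon beta (IFNb) was followed in RNA collected with the J2 antibody, which binds long duplex RNA, from NCI-H1944 cells, an established human lung adenocarcinoma line. The comparison uses 4 of the 12 libraries of the series, chosen by their labels: 2 from SCR cells, which are wild type, given IFNb, and 2 from SCR cells given DMSO. The treatment protocol, shared by all libraries, gives DMSO or an MPS1 inhibitor for 48 h, washout and another 24 h with or without recombinant IFNb at 5 ng per ml. The labels of the IFNb libraries name IFNb alone, so that these cultures first had DMSO is a reading of that protocol. In 4 further libraries, used to compare genotypes, IFNAR1sg cells with an IFNAR1 knockout genotype had received DMSO or IFNb in the same way. The sources used here do not say whether the IFNAR1sg cells were 1 clone or a pool, and the remaining 4 libraries, from cells given an MPS1 inhibitor, entered only the estimate of the spread. Nothing says that the libraries of a group came from separate cultures, so p-values measure the spread between these libraries, which may be technical.

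Type I interferons bind a receptor of 2 chains, IFNAR1 and IFNAR2, to which the kinases JAK1 and TYK2 are attached. The kinases phosphorylate STAT factors, which join IRF9 and bind a short element, searched for here as GAAA, any 2 bases and GAAA, near the start sites of interferon-stimulated genes. Many products of these genes sense or cut double-stranded RNA, so the RNA that J2 collects is also what several of the induced proteins recognise.

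Each row of the count table is a stranded genomic interval. Rows inside a gene, on its strand, without any exon base are called intronic here, and a row is called exon-sharing when it held at least 1 exon base of its strand. Reads of the 2 kinds were summed per gene and tested separately: 14642 genes had an intronic sum with enough reads and 5789 had an exon-sharing sum. Exon-sharing rows held 37.2% of all reads, and rows with at most 2 exon bases held 34.1%, so an exon-sharing value stands mostly for intervals that touch an exon's edge. Levels are in CPM, reads per library total after TMM scaling, and changes as log2 IFNb minus DMSO ± standard error with n = 2 libraries per group. A change was called at an adjusted p under 0.05 (edgeR quasi-likelihood F-test, Benjamini-Hochberg). Input RNA was not analysed here, and in such bulk libraries fewer molecules of a transcript, fewer cells that hold it and a smaller double-stranded share cannot be told apart.

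Both SCR IFNb libraries stood apart. They held 3842532 and 3739443 reads, against 6801465 and 5863159 in SCR DMSO and 4173239 to 7430687 in the other 8 libraries. Thinned to 3739443 reads each, they had reads in 291218 and 296843 rows, against 499385 and 524120 in SCR DMSO and 479635 to 651364 elsewhere. The intronic share of reads was 19.4% and 19.6% in SCR IFNb, against 37.8% and 35.6% in SCR DMSO and 33.7% and 36.8% in IFNAR1sg IFNb. The exon-sharing share was 49.6% and 47.9%, against 35.3% and 33.5% in SCR DMSO. IFNAR1 itself, on its exon-sharing row of 424 bp, had 9.41 and 9.51 CPM in SCR DMSO and 9.43 and 9.54 in SCR IFNb, against 2.73 and 1.69 in IFNAR1sg DMSO and 2.33 and 1.53 in IFNAR1sg IFNb. Of 11 lung epithelial markers, 6 had intronic sums (1 rose and 2 fell) and 3 had exon-sharing sums (1 rose and none fell). The exon-sharing sum that rose was that of the keratin KRT8, with 1746 and 1642 CPM in SCR DMSO and 4226 and 3847 with IFNb. Of 12 immune cell markers, CD4, CD8A and ITGAM had intronic sums, each at no more than 2.15 CPM in the 4 SCR libraries, and CD68, a lysosomal protein of macrophages, had an exon-sharing sum that rose from 0.818 and 0.792 to 8.52 and 9.54 CPM. Of 10 fibroblast markers, FAP and ACTA2 had intronic sums, the higher of them at 5.48 CPM, and none had an exon-sharing sum.

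Promoters of many interferon response genes hold the element described above. In RefSeq promoters of GRCh38.p14 (250 bases before to 50 after the start), that element on either strand was found in 3.65% of all 27305 promoters and in 38 of the 77 interferon response genes that had a promoter in the table, or 49.4%. Each line below gives 30 bases in the gene's direction with a match of the element in capitals. TTTC, 2 bases and TTTC is the element on the other strand. The IFIH1 line also holds a further match that overlaps the one in capitals. They are IFI6 (chr1:27672288-27672317, minus strand), IFI44L (chr1:78620274-78620303, plus strand), IFIH1 (chr2:162318824-162318853, minus strand), PARP14 (chr3:122680800-122680829, plus strand), DDX60L (chr4:168480523-168480552, minus strand), IFIT1 (chr10:89392510-89392539, plus strand) and OAS3 (chr12:112938321-112938350, plus strand), all of which rose, and TXNRD1 (chr12:104215577-104215606, plus strand), whose intronic and exon-sharing sums moved in opposite directions.
IFI6: ggagagagggGAAAATGAAActgcagagtg
IFI44L: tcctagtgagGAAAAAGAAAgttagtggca
IFIH1: gagaattcgcTTTCCTTTTCtgtttcccgc
PARP14: tccaggaaacGAAAGCGAAAgagtcaaagt
DDX60L: gtggagaaaaGAAACCGAAActaactccct
IFIT1: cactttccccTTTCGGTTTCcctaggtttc
OAS3: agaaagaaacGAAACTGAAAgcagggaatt
TXNRD1: tcttttctccTTTCCATTTCtgcattttcc
The first 7 flank the element with different bases, and the 30 bases shown for IFI44L occur a second time in the same promoter (chr1:78620365-78620394). Among genes with a tested intronic sum and a promoter in the table, 2.93% held the element. The share was 10.1% (70 of 691) where the intronic sum rose, 26.5% where it rose by more than 2 log2 units, and 1.98% where it fell. For exon-sharing sums it was 3.14% of those tested, 3.58% of those that rose, 14.3% of those that rose by more than 2 log2 units and 1.3% of those that fell. A match describes letters in this window and does not show that a factor was bound.

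On the scaling by whole libraries, the 2 classes of RNA moved in opposite directions. Of the intronic sums, 1160 rose (7.92%) and 5639 fell (38.5%), with a median change of -0.57 over all 14642. Of the exon-sharing sums, 3027 rose (52.3%) and 237 fell (4.09%), with a median of 0.77 over all 5789. On exon-sharing rows with more than 2 exon bases, 384 of 1168 sums rose and 44 fell. This split rests on 1 scaling for the whole library. When each class was scaled to its own reads, which centres it near 0 and so shifts the medians by 0.58 and -0.78, 2555 intronic sums rose and 2694 fell, and 757 exon-sharing sums rose and 861 fell. Higher sums then made up 48.7% of intronic calls instead of 17.1%, and 46.8% of exon-sharing calls instead of 92.7%. The changes below use the whole-library scaling, and each is to be read against the median of its class.

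**Figure D1:**
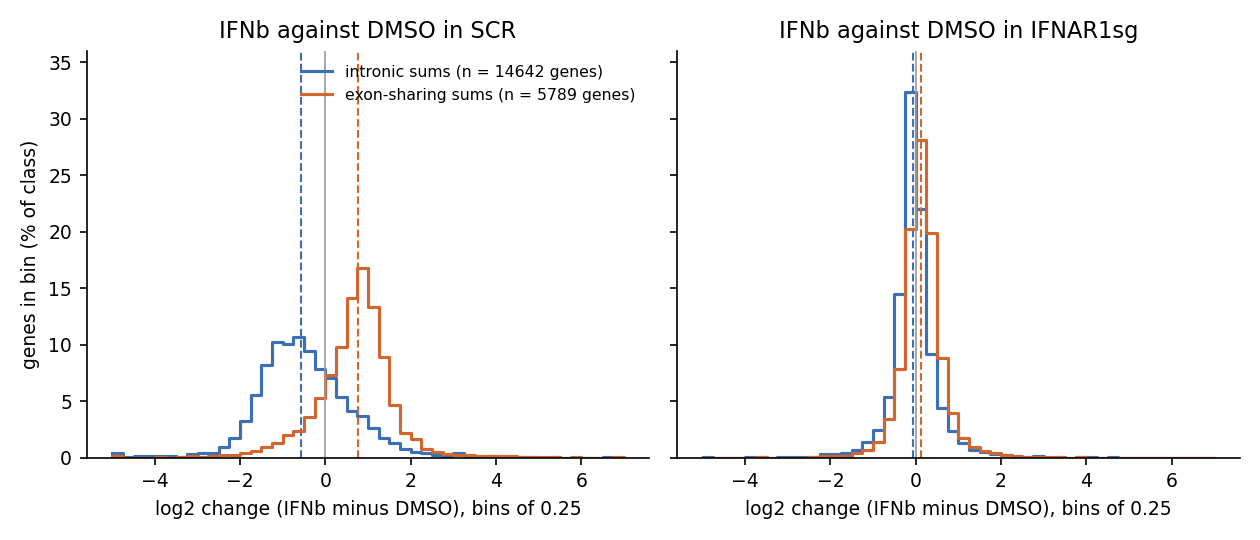
Share of genes (percent of the class) by log2 change (IFNb minus DMSO) for intronic and exon-sharing sums, in SCR and in IFNAR1sg cells, in bins of 0.25; dashed lines are the medians. In SCR the 2 classes lie on either side of 0 (medians -0.57 and 0.77), and in IFNAR1sg both lie near it (-0.06 and 0.14).

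Interferon response genes stood at the upper end of both classes. A list of 96 such genes had 76 intronic sums, of which 56 rose and 2 fell (median change 2.34), and 46 exon-sharing sums, of which 43 rose and none fell (median 3.08, or 3.0 with UBE2L6, which had 0 DMSO reads, at its lower bound). With each class scaled to its own reads 69 intronic sums rose and none fell (median 2.92), and 37 of 45 exon-sharing sums rose and none fell (median 2.31). The falls on intronic rows, named for this reason after their values were seen, were IL4R, an interleukin receptor chain (-0.76), and PSMA3, a proteasome subunit (-0.57). Neither was called with intronic reads scaled alone (-0.18 and 0.0097), and that of PSMA3 ended without SCR DMSO replicate 1 (-0.46), SCR IFNb replicate 1 (-0.55) or SCR IFNb replicate 2 (-0.59) and with the DESeq2 Wald test (-0.54). The list's share of all reads went from 0.125% and 0.118% to 0.398% and 0.387% on intronic rows, and from 0.094% and 0.0924% to 0.601% and 0.576% on exon-sharing rows. The share was thus higher in both IFNb libraries in each class.

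The intronic rises with the smallest p were led by RMI2, a subunit of the BLM helicase complex that dissolves recombination intermediates (chr16:11249619-11381662, plus strand). Its intronic sum was 30.4 and 31.2 CPM in DMSO and 816 and 981 with IFNb, a change of 4.87 ± 0.11 (adjusted p = 3.75e-82). IFIT1, which binds viral RNA without a host cap (chr10:89392546-89406486, plus strand), went from 6.41 and 4.91 to 262 and 235 CPM (5.44 ± 0.20). CMPK2, a mitochondrial nucleotide kinase (chr2:6840570-6866635, minus strand), went from 1.91 and 1.58 to 107 and 91.4 CPM (5.80 ± 0.33). These genes were chosen among those without overlap between the libraries of the groups, so their separation is no separate result. The intronic sum of USP18, the protease that removes ISG15 and silences the receptor, rose by 4.50 ± 0.22 from 5.32 and 3.96 to 101 and 111 CPM. IFIH1, which encodes the sensor MDA5 of long RNA duplexes (chr2:162267079-162318703, minus strand), rose from 26.6 and 28.8 to 254 and 224 CPM (3.11 ± 0.13). These 5 genes had at most 8.33% of their intronic reads in rows that lie over an exon of the other strand. ZBP1, a sensor of left-handed duplex RNA, had 0 intronic reads in both DMSO libraries and 29 and 13 with IFNb, at least 29.2-fold higher taking 3 reads over both DMSO libraries as the floor.

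Some intronic sums with very small p lay over exons of a neighbour on the other strand, and the sources used here do not say how strand was used in counting. TRIM5, a restriction factor of retroviral capsids, had 92.7% of its intronic reads in such rows, and the row with the smallest p lies over exons of TRIM22. Its sum rose by 5.73 ± 0.16, and by 3.53 without those rows. LIPA, a lysosomal lipase with IFIT2 on the other strand within its locus, rose by 3.95 ± 0.15 with 89.1% of reads in such rows, and its change was 0.15 without them (adjusted p = 0.682). TRIM14, an adaptor of antiviral signalling, rose by 2.42 ± 0.08 with 95.1% of reads in such rows and by 1.53 without them. Reads of these genes and of their neighbours cannot be told apart there. Without all such rows, 910 of 13991 intronic sums rose and 5681 fell.

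The exon-sharing rises with the smallest p were sensors and effectors of the antiviral state. OAS2, a synthetase of the oligoadenylate messenger that switches on RNase L (chr12:112978395-113011723, plus strand), went from 13.5 and 10.9 CPM to 704 and 639 (5.77 ± 0.16, adjusted p = 9.86e-25). IFI6, an interferon-induced membrane protein, went from 18.8 and 19.8 to 645 and 781 CPM (5.21 ± 0.15). RIGI, which senses RNA ends with a triphosphate, went from 19.8 and 15.2 to 543 and 522 CPM (4.92 ± 0.15). Here, too, only genes without overlap between the groups could be chosen. MX1, a GTPase that traps viral nucleocapsids, rose by 5.45 ± 0.20 from 6.13 and 7.29 to 289 and 297 CPM. IFI16, a DNA sensor, rose by 4.25 ± 0.13, and IFI44, which limits virus replication, by 4.49 ± 0.16. RMI2 rose in this class too, from 7.63 and 6.02 to 231 and 197 CPM (4.96 ± 0.19).

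**Figure D2:**
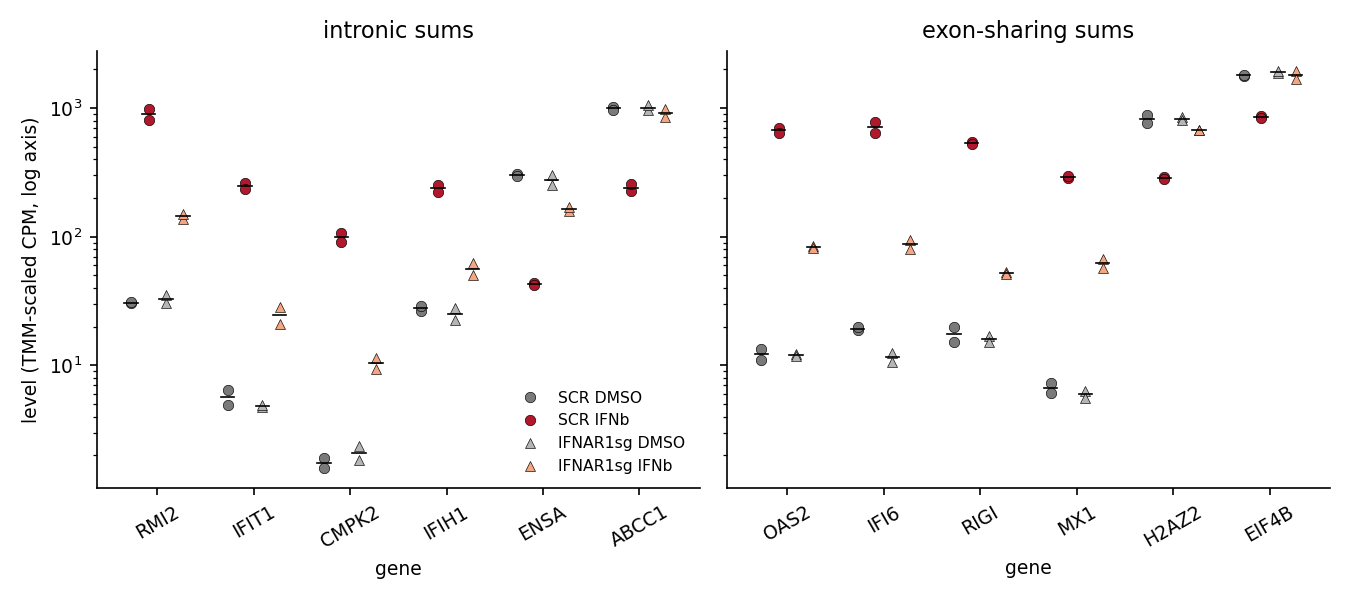
Level of named genes in each library (TMM-scaled CPM, log axis) as intronic sums (left) and exon-sharing sums (right); each point is a library, bars are group means, circles are SCR and triangles IFNAR1sg. RMI2, IFIT1, CMPK2, IFIH1, OAS2, IFI6, RIGI and MX1 were higher in both SCR IFNb libraries than in SCR DMSO, and ENSA, ABCC1, H2AZ2 and EIF4B were lower.

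The receptor and its signalling chain are described by single genes, beside 38.5% of all intronic sums that fell (median -0.57). STAT2 rose from 4.77 and 4.59 to 97.7 and 84 CPM on a single exon-sharing row of 6 bp (4.27 ± 0.24) and by 2.35 ± 0.48 on intronic rows. STAT2 was thus higher in each class.
JAK1 differed between classes: it rose on an exon-sharing row of 221 bp, from 17.9 and 18.1 to 53 and 45.5 CPM (1.45 ± 0.19), and fell on intronic rows, from 18.8 and 17.4 to 10.3 and 12 CPM (-0.70 ± 0.24). An intronic fall with an exon-sharing rise was found in 1368 of 4762 genes tested in both classes (28.7%). The intronic fall of JAK1 was not called with intronic reads scaled alone (-0.12). Leaving out SCR DMSO replicate 1 or SCR IFNb replicate 1 also ended the call (-0.64 and -0.60). STAT3, which signals mainly for other cytokines, fell on intronic rows from 57.8 and 63.4 to 23.1 and 28 CPM (-1.24 ± 0.16). The intronic reads of IFNAR1 were 34 and 33 in DMSO and 8 and 0 with IFNb (-1.99 ± 0.62), a fall that was not called without SCR IFNb replicate 2 (-1.01, adjusted p = 0.179). TYK2 had intronic levels of 4.36 and 3.33 CPM in DMSO and 0.913 and 3.38 with IFNb, and its change of -0.84 ± 0.53 was not called (adjusted p = 0.171), although it was called without SCR IFNb replicate 2 (-2.06) and without TMM factors (-1.16).

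Genes that dampen the pathway lay near the intronic background. Of 7 feedback inhibitors, 5 had an intronic sum, of which USP18 rose and 2 fell (median -0.62, or -0.05 with intronic reads scaled alone), where 38.5% of all intronic sums fell with a median of -0.57. PTPN2, a phosphatase of JAK1, fell from 57.8 and 61.2 to 24.6 and 18.5 CPM (-1.46 ± 0.17), and PIAS1, an inhibitor of activated STAT factors, fell by 1.23 ± 0.18. On exon-sharing rows 4 of 4 measured inhibitors rose (median 1.43, and 2 of 4 with exon-sharing reads scaled alone, median 0.65), where 52.3% of all exon-sharing sums rose with a median of 0.77. PIAS1 went from 29.2 and 27.7 to 74.3 and 73.8 CPM there (1.38 ± 0.17), and SOCS3, which blocks JAK kinases, from 3.41 and 3.17 to 9.74 and 8.61 (1.47 ± 0.36, not called with those reads scaled alone, 0.70). Hence PIAS1 fell on 1 kind of row and rose on the other. PTPN1, another phosphatase of the pathway, rose on exon-sharing rows by 0.53 ± 0.12, but its change was -0.25 with those reads scaled alone and 0.21, not called, without TMM factors.

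Interferon regulatory factors and related transcription factors, a list of 10, had 7 intronic sums, of which 4 rose and none fell (median 2.0). IRF7, the factor that amplifies type I interferon production, went on exon-sharing rows from 1.77 and 1.58 to 35.9 and 36.6 CPM (4.41 ± 0.35), and had 0 and 1 intronic reads in DMSO against 31 and 28 with IFNb. BATF2, a partner of IRF1 in macrophages, rose from 0.954 and 1.27 to 28.3 and 29.8 CPM on its exon-sharing row (4.70 ± 0.45), and by 3.50 ± 0.55 on intronic rows. ETV7, a repressor induced by interferon, rose on intronic rows from 0.273 and 0.792 to 10.3 and 7.69 CPM (4.07 ± 0.75). The remaining riser, ZNFX1, a helicase that senses viral RNA, changed by 0.42 ± 0.17, and leaving out SCR DMSO replicate 1, SCR IFNb replicate 1 or SCR IFNb replicate 2 ended that call (0.22, 0.35 and 0.48), as did leaving out TMM factors (0.097) or the filter on low counts (0.42).

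Sensors and effectors of double-stranded RNA rose more often than sums in general, and some fell. Over all intronic sums tested, 7.92% rose and 38.5% fell (median -0.57). Over all exon-sharing sums, 52.3% rose and 4.09% fell (median 0.77). Of 22 genes, 21 had intronic sums, of which 14 rose and 5 fell (median 1.58), and 13 had exon-sharing sums, of which 10 rose and 1 fell (median 2.0). OAS1 rose on intronic rows from 5.72 and 6.65 to 77.3 and 66.4 CPM (3.54 ± 0.21), and OAS3 from 12.4 and 12.2 to 105 and 99.1 (3.05 ± 0.16). RIGI rose on intronic rows from 21.8 and 25 to 144 and 134 CPM (2.57 ± 0.14). All 3 were higher in both IFNb libraries. ADAR, which edits adenosines in duplex RNA, rose on its exon-sharing row from 44.3 and 43.9 to 248 and 241 CPM (2.47 ± 0.14), against 0.49 ± 0.16 on intronic rows, a rise not called without SCR DMSO replicate 1 (0.38), SCR IFNb replicate 1 (0.48) or TMM factors (0.17). OASL, an OAS-like partner of RIG-I, rose on exon-sharing rows by 4.18 ± 0.19.
The next 4 members (EIF2AK2, MAVS, STRBP and DHX9) were chosen after their values were seen. EIF2AK2, the kinase PKR that halts translation on duplex RNA, rose by 1.51 ± 0.11 on intronic and 1.78 ± 0.12 on exon-sharing rows. MAVS, the adaptor downstream of RIG-I and MDA5, fell on intronic rows from 17.6 and 20 to 6.39 and 4.92 CPM (-1.72 ± 0.30). On its exon-sharing row MAVS fell by 0.63 ± 0.25, a call that ended without SCR DMSO replicate 1 (-0.55), SCR IFNb replicate 1 (-0.68) or SCR IFNb replicate 2 (-0.58) and with the DESeq2 Wald test (-0.60). STRBP, which binds duplex RNA in the nucleus, fell on intronic rows from 96.6 and 71 to 12.2 and 13.2 CPM (-2.72 ± 0.19). DHX9, a helicase that unwinds duplex RNA, fell on intronic rows by 1.79, and changed by 0.61 on exon-sharing rows, or by -0.17 with those reads scaled alone and 0.29, not called, without TMM factors.

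Most measured antiviral effectors rose in each class. Of 41 such genes 34 had intronic sums, of which 32 rose and none fell (median 3.36), and 22 had exon-sharing sums, of which 21 rose and none fell (median 3.9). DDX60L, a helicase-like protein, rose on intronic rows from 30.3 and 20.4 to 226 and 195 CPM (3.04 ± 0.13). IFI44L rose on exon-sharing rows from 8.31 and 7.6 to 222 and 177 CPM (4.64 ± 0.19). The genes of ISG15 conjugation and ADP-ribosylation, a list of 12, had 11 intronic sums with 10 rises and no fall (median 2.55) and 9 exon-sharing sums that all rose (median 3.64, or 3.39 with UBE2L6 at its lower bound). PARP9 on exon-sharing rows went from 167 and 204 to 2451 and 2164 CPM (3.64 ± 0.12), and DTX3L, the ubiquitin ligase that pairs with PARP9, from 82.9 and 87.8 to 928 and 858 (3.39 ± 0.13). The 2 genes lie head to head and encode proteins that work as a complex. UBE2L6, the enzyme that passes ISG15 to its ligase, had 0 exon-sharing reads in DMSO and 6 and 5 with IFNb, at least 7.66-fold higher by the same floor.

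Of 18 antigen presentation genes, 10 had intronic sums (6 rose, 1 fell, 3 were not called, median 2.24) and 7 had exon-sharing sums (6 rose, none fell, median 3.88). NLRC5, the transactivator of MHC class I genes, went from 1.23 and 1.27 to 26.8 and 30.8 CPM on exon-sharing rows (4.51 ± 0.42) and from 20 and 17.6 to 100 and 95.7 on intronic rows (2.37 ± 0.16). B2M, the light chain of MHC class I, went from 3.54 and 2.53 to 15.5 and 18.2 CPM on exon-sharing rows (2.45 ± 0.34). ERAP2, which trims peptides for class I, went from 1.77 and 3.64 to 40.8 and 38.1 CPM there (3.88 ± 0.33), whereas its intronic change of 0.65 ± 0.46 was called only with intronic reads scaled alone (1.23). HLA-E, a class I molecule read by NK cells, rose on intronic rows by 3.0 ± 0.46. The member that fell was TAPBP, a chaperone of class I loading named after its value was seen (-0.58 on intronic rows), and leaving out any 1 of the 4 libraries ended its call (-0.75 to -0.44), as did intronic reads scaled alone (-0.0066).

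NF-kB targets, chemokines and cell death genes had both rises and falls on intronic rows, where 7.92% of all sums rose and 38.5% fell. On exon-sharing rows 52.3% of all sums rose. The medians of both lists lay above those of all sums (-0.57 on intronic and 0.77 on exon-sharing rows). Of 21 NF-kB targets and chemokines, 9 had intronic sums (5 rose, 2 fell, median 1.55) and 5 had exon-sharing sums, which all rose (median 2.49). CXCL5, a neutrophil chemokine, rose on its intronic row from 27.4 and 25.3 to 74.6 and 86.1 CPM (1.60 ± 0.15). BIRC3, an inhibitor of apoptosis that NF-kB induces, rose on exon-sharing rows from 16.5 and 18.9 to 111 and 87.1 CPM (2.49 ± 0.17). RELB, a subunit of the factor itself, fell by 0.96 on intronic rows, a fall not called with intronic reads scaled alone (-0.39). Of 15 cell death genes, 11 had intronic sums, of which 5 rose and 3 fell (median 0.11, or -0.22 without TMM factors). MLKL, which perforates the membrane in necroptosis, rose on exon-sharing rows from 48.8 and 46.4 to 359 and 342 CPM (2.88 ± 0.13), and XAF1, which counters inhibitors of apoptosis, on intronic rows from 0.954 and 0.634 to 30.4 and 28 CPM (5.15 ± 0.48). BCL2L1, which encodes the survival protein BCL-XL, fell on intronic rows from 113 and 103 to 42.3 and 45.8 CPM (-1.29).

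**Figure D3:**
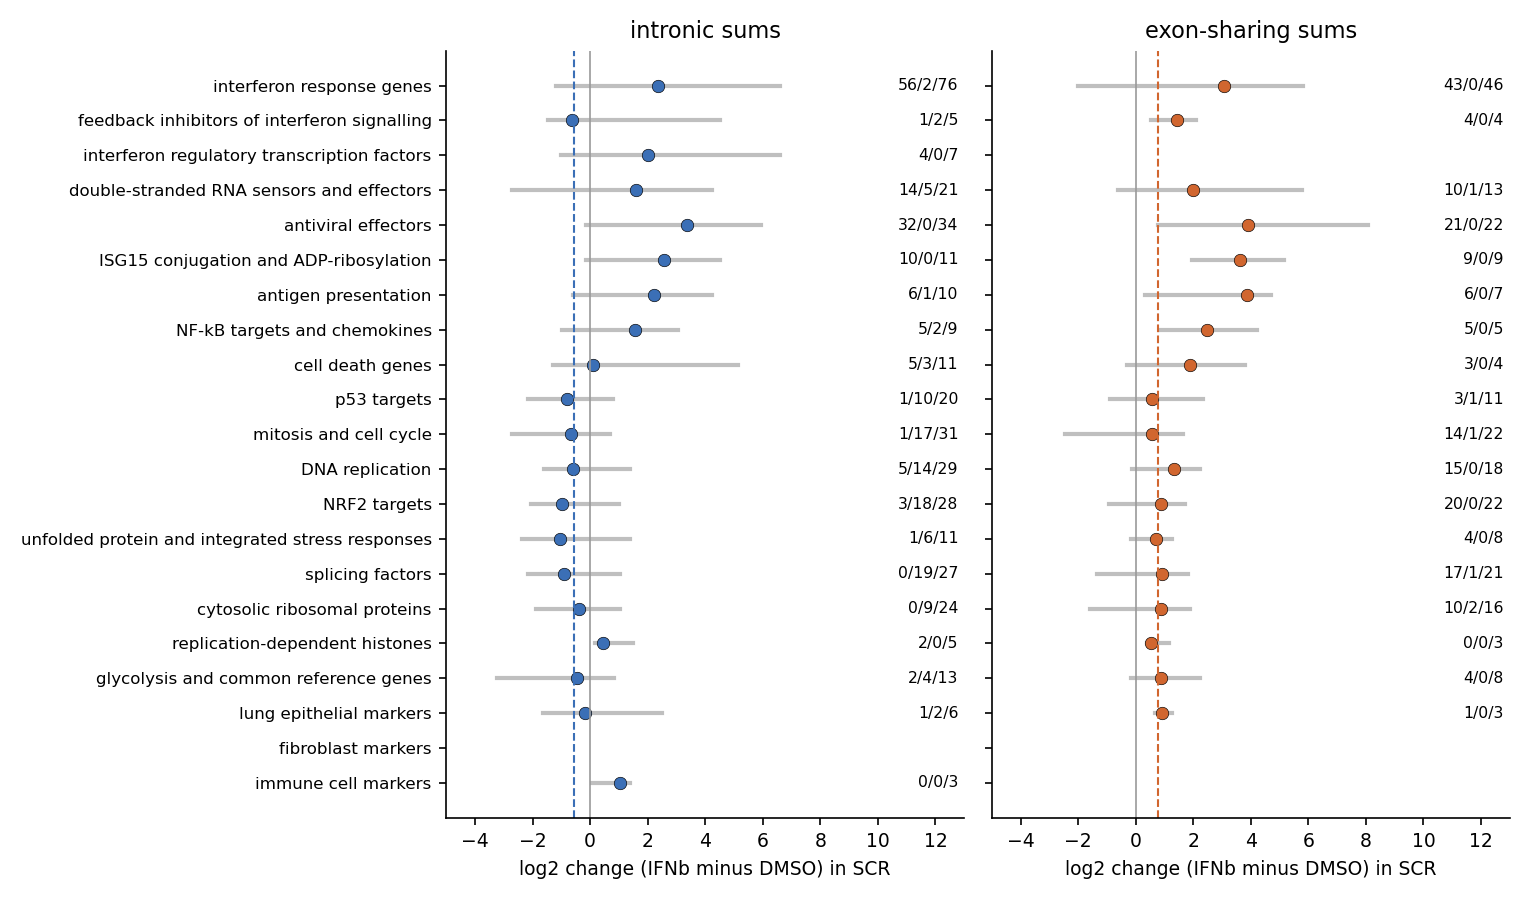
Median log2 change (IFNb minus DMSO, SCR) of each gene list with at least 3 measured members, for intronic sums (left) and exon-sharing sums (right); grey lines span the members that have a standard error, dashed lines are the medians of all sums tested, and numbers give members that rose, fell and were measured. The list of the receptor, its kinases and STAT factors is not plotted. Interferon response, antiviral, ISG15, antigen presentation, double-stranded RNA and NF-kB lists lie to the right of the dashed line in both panels. Cell death genes lie less far to the right, and most other lists lie close to the line.

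The intronic falls with the smallest p were genes of many functions. ENSA, an inhibitor of the phosphatase PP2A in mitosis (chr1:150600851-150629612, minus strand), went from 308 and 298 CPM to 43.8 and 42.1 (-2.82 ± 0.12, adjusted p = 1.64e-49). ABCC1, a glutathione conjugate exporter (chr16:15949577-16143074, plus strand), went from 1021 and 968 to 225 and 256 CPM (-2.05 ± 0.09). TTC5, which recognises nascent tubulin, went from 227 and 225 to 30.4 and 30.5 CPM (-2.89 ± 0.13). All 3 moved in the direction opposite to the antiviral genes, and the lack of overlap between the groups was a condition of the choice. PUM3, a nucleolar RNA-binding protein, fell by 2.02 ± 0.08 from 1415 and 1122 CPM. TXNRD1, the cytosolic thioredoxin reductase, fell by 1.77 ± 0.08 from 2037 and 1825 to 554 and 578 CPM. DUXAP10 and DUXAP8, pseudogene transcripts with near-identical copies whose reads may be split between them, fell by 2.39 and 2.13.

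Housekeeping and growth lists lay nearer to the median of their class than the interferon response list did. Over all sums tested, 38.5% of intronic ones fell (median -0.57) and 52.3% of exon-sharing ones rose (median 0.77). Among these lists, splicing factors, NRF2 targets and stress response genes had the medians furthest below the intronic one. DNA replication genes had the median furthest above the exon-sharing one. Of 27 splicing factors with intronic sums none rose and 19 fell (median -0.92), and of 21 with exon-sharing sums 17 rose and 1 fell (median 0.93). Scaled by class, their medians were -0.34 and 0.15, with 3 rises and 11 falls on intronic rows and 5 rises and 1 fall on exon-sharing rows. HNRNPC, which keeps Alu sequences out of spliced exons, fell on intronic rows from 234 and 213 to 70.3 and 69.5 CPM (-1.68 ± 0.11) and rose on exon-sharing rows from 185 and 202 to 386 and 385 (0.99 ± 0.12), a rise not called with those reads scaled alone (0.21). LUC7L, a factor of the U1 particle, fell on intronic rows from 45.5 and 48.5 to 9.74 and 11.4 CPM (-2.15), and SRSF3, an SR splicing factor, rose on exon-sharing rows from 193 and 165 to 457 and 445 (1.33).
NRF2 targets, genes of the antioxidant response, had 28 intronic sums (3 rose, 18 fell, median -0.98) and 22 exon-sharing sums (20 rose, none fell, median 0.89). Scaled by class their medians were -0.40 (7 rose, 13 fell) and 0.11 (9 rose, 4 fell). SLC7A11, the cystine importer, fell on intronic rows from 308 and 294 to 92.2 and 79.1 CPM (-1.81), with 42.9% of those reads in rows over exons of the other strand, and NQO1, a quinone reductase, rose on exon-sharing rows from 1748 and 1431 to 4409 and 3966 (1.40). AKR1C1, a reductase of steroids and lipid aldehydes, rose on exon-sharing rows from 2235 and 1942 to 7205 and 6540 CPM (1.72).

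Cell cycle genes, too, had negative medians on intronic rows and positive ones on exon-sharing rows. Mitosis and cell cycle genes had 31 intronic sums (1 rose, 17 fell, median -0.67) and 22 exon-sharing sums (14 rose, 1 fell, median 0.57), and scaled by class the exon-sharing median turned to -0.20 and the intronic one was -0.10. CCNB1, the cyclin of mitotic entry, fell on intronic rows from 76.1 and 71.8 to 21.9 and 14.5 CPM (-2.02). DNA replication genes had 29 intronic sums (5 rose, 14 fell, median -0.58) and 18 exon-sharing sums (15 rose, none fell, median 1.33, or 0.55 with 6 rises when scaled by class). POLA1, the catalytic subunit of the polymerase that lays down primers, fell on intronic rows by 1.59 from 63.9 and 55.3 to 22.5 and 17.2 CPM. MCM10, which starts replication forks, rose on exon-sharing rows from 53.8 and 49 to 169 and 155 CPM (1.65).
p53 targets had 20 intronic sums (1 rose, 10 fell, median -0.81) and 11 exon-sharing sums (3 rose, 1 fell, median 0.57, which turned to -0.17 when scaled by class). DDB2, a damage sensor of nucleotide excision repair, fell on intronic rows from 42.4 and 45.9 to 14 and 8 CPM (-2.0), with 54.5% of reads in rows over exons of the other strand, and rose on exon-sharing rows from 2.73 and 4.44 to 15.5 and 20.6 (2.34). Unfolded protein and integrated stress response genes had 11 intronic sums (1 rose, 6 fell, median -1.05) and 8 exon-sharing sums (4 rose, none fell, median 0.72). Cytosolic ribosomal protein genes had 24 intronic sums (none rose, 9 fell), whose median of -0.39 turned to 0.18 when scaled by class. Of their 16 exon-sharing sums 10 rose and 2 fell (median 0.90, or 0.12 when scaled by class). Glycolysis and reference genes had 13 intronic sums (2 rose, 4 fell, median -0.46, which turned to 0.07). Replication-dependent histones, whose genes lack introns, had 5 sums on rows without exon bases (2 rose, median 0.44), among them H4C8, from 32.4 and 26 to 68.5 and 69.5 CPM (1.23).

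Exon-sharing sums that fell were few, and the clearest were these. H2AZ2, which encodes a variant of histone H2A, went from 884 and 761 to 293 and 281 CPM (-1.52 ± 0.12), on a row of 1816 bp (chr7:44830163-44831978). EIF4B, a translation initiation factor that assists the helicase EIF4A, went from 1794 and 1825 to 873 and 836 CPM (-1.08 ± 0.11). CPLANE1, a ciliary gene, went from 253 and 225 to 91.3 and 84.9 CPM (-1.44), and EVA1C, a membrane protein gene, fell by 1.45. DLGAP1-AS2, an antisense transcript whose reads may be shared with the gene opposite, fell by 2.24 from 95.3 and 97.9 to 24 and 16.9 CPM. That the 2 groups do not overlap was a condition for choosing these genes. The intronic sums of EIF4B (-1.66 ± 0.13), CPLANE1 (-1.52 ± 0.17), EVA1C (-1.33 ± 0.09) and H2AZ2 (-1.05 ± 0.35) fell as well, although that of H2AZ2 was not called without SCR IFNb replicate 2 (-0.80) or with intronic reads scaled alone (-0.48).

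In 4762 genes both classes could be tested, and the difference between the 2 changes was fitted directly with each library as a block. The exon-sharing change was the higher in 3000 genes (63%) and the lower in 54 (1.13%), with a median difference of 1.38. With each class scaled to its own reads the counts were 753 and 655. In 1368 genes (28.7%) the intronic sum fell while the exon-sharing sum rose, in 279 both rose, in 142 both fell, and in 3 the intronic sum rose while the exon-sharing sum fell. Of 43 interferon response genes tested in both classes, 32 rose in both, 25 had a higher exon-sharing change and 2 a lower one. Their median difference was 1.16, against 1.39 in the other genes. Across genes the 2 changes had Pearson r = 0.375 (0.319 off the interferon list), a description only, since both sums of a gene come from the same 4 libraries.
The genes with the smallest p for this difference are given by direction. CMIP, an adaptor of immune signalling, had an exon-sharing change higher by 2.80 ± 0.14: its intronic sum went from 486 and 379 to 126 and 126 CPM and its exon-sharing sum from 581 and 529 to 1128 and 1143. On rows with more than 2 exon bases its rise was not called (0.86). TXNRD1 rose on exon-sharing rows from 6849 and 6287 to 14026 and 13107 CPM (1.05 ± 0.10) while its intronic sum fell as given above. RIMKLB, a synthetase of N-acetylaspartylglutamate, differed by 2.67. ASS1, the urea cycle enzyme that makes argininosuccinate, differed by 2.56, although its exon-sharing change of 0.70 turned to -0.074 with those reads scaled alone and was not called on rows with more than 2 exon bases (0.88). In the other direction, SMARCA5, a chromatin remodeller, rose on intronic rows from 11.2 and 9.51 to 25.3 and 30.5 CPM (1.42), and fell on its exon-sharing row from 14.6 and 12.7 to 6.39 and 7.69 (-0.95), a fall not called without SCR IFNb replicate 1 (-0.83). DR1, a repressor of basal transcription, fell on its exon-sharing row from 20.2 and 16 to 3.96 and 2.15 CPM (-2.56) with an intronic change of 0.83 that was called only with intronic reads scaled alone (1.41), a difference of -3.39 ± 0.62. USP18, an interferon-stimulated gene, rose in both classes and less on exon-sharing rows, from 1.64 and 2.85 to 9.43 and 9.54 CPM (2.09 ± 0.42), a difference of -2.41 ± 0.46.

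**Figure D4:**
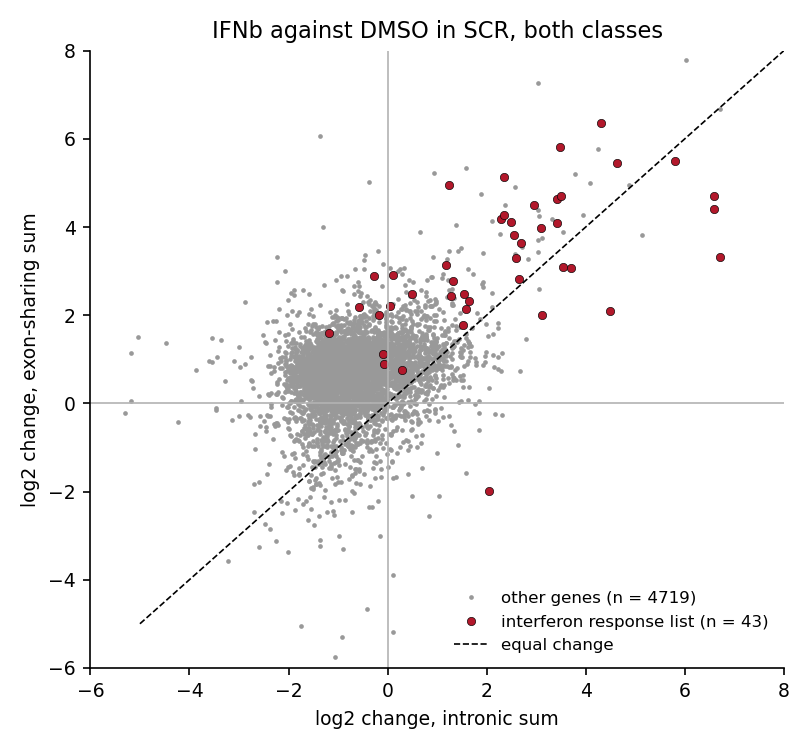
Log2 change (IFNb minus DMSO, SCR) of intronic sums (x axis) against exon-sharing sums (y axis) for 4762 genes tested in both classes; each point is a gene, the dashed line marks equal changes and the 43 interferon response genes are red. Most genes lie left of 0 and above 0, and most red points lie in the upper right, where both sums were higher.

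Single rows showed whether a gene's change came from 1 interval. Of 51774 intronic rows tested, 2898 rose (5.6%) and 13191 fell (25.5%). Of 9630 exon-sharing rows 4342 rose (45.1%) and 522 fell (5.42%), and without TMM factors 2969 rose and 843 fell, which brings the share of higher calls from 89.3% to 77.9%. Row counts also moved with single libraries: 6651 intronic rows fell without SCR IFNb replicate 1, 6977 without SCR IFNb replicate 2 and 8727 without SCR DMSO replicate 1, and 1791 and 1903 rose without SCR IFNb replicate 1 and 2. The intronic row with the smallest p among rises lay in RMI2 (chr16:11317275-11318568, plus strand, 1294 bp, with Alu and L1 elements) and went from 13.1 and 12.2 to 402 and 489 CPM (5.13). The fall with the smallest p lay in ENSA (chr1:150610137-150621074, minus strand) and went from 292 and 280 to 39.9 and 38.1 CPM (-2.88). The leading exon-sharing row was a 782 bp interval of OAS2 (chr12:112998410-112999191, plus strand) with 1 exon base. Opposite it, on the minus strand, a row of 105355 bp (chr12:112908678-113014032) spans the OAS genes and holds 18877 exon bases of the plus strand. It went from 85.7 and 122 to 2628 and 2729 CPM (4.69), and its reads cannot be told from those of the OAS genes without knowing how strand was counted.
Intronic rows of a gene did not always move the same way. The interferon response list had 374 tested intronic rows in 66 genes, of which 200 rose and 5 fell. Of the 45 genes with at least 3 rows, 29 had positive changes in every row and 2 had rows called in both directions, IL4R (1 rose and 1 fell of 8) and NCOA7 (3 rose and 2 fell of 10), both named after their values were seen. In DDX60L 16 of 16 rows had positive changes and 15 were called. In ABCC1 4 of 99 rows had positive changes, 71 fell and none rose, and in HNRNPC none of 39 rows had a positive change and 26 fell. CLNS1A had 3 rows that rose and 6 that fell of 18, and DUXAP8 had 2 and 8 of 10. Over the list and the genes chosen by the naming rule, 18 of 125 genes with at least 3 tested rows had rows called in both directions. Rows naming an Alu element rose in 4.15% and fell in 32%, against 6.79% and 20.4% of rows that name no repeat. Their median lengths were 995 and 698 bp, and the share that fell also went from 15.6% in the group of the shortest rows to 34.7% in that of the longest, with rows divided into 4 equal groups by length. Divided by mean CPM instead, the share that fell went from 16.7% in the lowest group to 36.9% in the highest. The share that rose went from 0.548% to 15.8%. The parts of length and level in the difference by repeat were not tested.

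Many interferon response genes also rose on antisense rows and on rows past the gene's end. Antisense sums, from rows with a gene only on the other strand, rose in 2786 of 10775 genes (25.9%) and fell in 395 (3.67%), with a median of 0.58. For the interferon list 55 of 59 rose and none fell (median 3.06). Sums over the 10000 bp past a gene's end rose in 2582 of 13083 (19.7%) and fell in 982 (7.51%), with a median of 0.30, and for the list 42 of 65 rose and 1 fell (median 2.57). IRF2, which represses interferon targets, changed by 2.62 ± 0.26 on antisense rows, from 9.27 and 11.1 to 56.6 and 68.3 CPM, while its intronic change of -0.08 ± 0.20 was not called and was 0.50 with intronic reads scaled alone; it was chosen after its values were seen. SOCS3 rose on antisense rows by 1.71 ± 0.28, from 10.9 and 13.1 to 38.3 and 40.3 CPM. Antisense rows may lie over exons of the gene opposite. Without knowing how strand was counted, their reads cannot be told from those of that gene. A row past a gene's end may also be antisense to another gene and can then count in both sums.

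The dependence on the receptor was tested as the difference between genotypes, with the IFNAR1sg change taken from the SCR change. In IFNAR1sg cells IFNb raised 94 intronic sums (0.642%) and lowered 94 (0.642%), and raised 184 exon-sharing sums (3.18%) and lowered 25 (0.432%). The change differed between genotypes in 4762 intronic sums, with the SCR change higher in 619 (4.23%) and lower in 4143 (28.3%). It differed in 1879 exon-sharing sums, higher in SCR in 1766 (30.5%) and lower in 113 (1.95%). With each class scaled to its own reads the counts were 1483 and 1834, and 248 and 358.
Interferon response genes still moved in IFNAR1sg: 29 of 76 intronic and 20 of 46 exon-sharing sums rose, with medians of 0.72 and 1.12, and none fell. OAS2 on its exon-sharing row went from 12.2 and 11.9 to 84.7 and 81.6 CPM in IFNAR1sg (2.79 ± 0.16), a change smaller than in SCR by 2.98 ± 0.23 (adjusted p = 8.8e-12). RMI2 on intronic rows went from 30.6 and 35.3 to 138 and 150 CPM (2.12 ± 0.11), with a difference of 2.75 ± 0.16. In both genes IFNAR1sg IFNb lay above IFNAR1sg DMSO and below SCR IFNb. MX1 on exon-sharing rows rose by 3.39 in IFNAR1sg, with a difference of 2.06 that was not called on rows with more than 2 exon bases (1.58, adjusted p = 0.209). CXCL5 had 31.8 and 42.6 CPM in IFNAR1sg DMSO and 26.5 and 27.8 with IFNb on its intronic row (-0.47, not called), with a difference of 2.07 ± 0.21. Over the list, the SCR change was the higher in 46 intronic and 32 exon-sharing sums and the lower in 2 and none.
The falls named next were smaller in IFNAR1sg. ENSA fell in IFNAR1sg from 254 and 302 to 158 and 170 CPM (-0.76 ± 0.10), with a difference of -2.05 ± 0.16. ABCC1 had 969 and 1056 CPM in IFNAR1sg DMSO and 855 and 978 with IFNb (-0.14 ± 0.08, not called), with a difference of -1.90 ± 0.12. EIF4B on exon-sharing rows changed by -0.08 ± 0.11 in IFNAR1sg, with a difference of -1.0 ± 0.15. The libraries of SCR IFNb were the only ones of these 4 groups with an intronic share under 20%, and its part in these falls was not tested.

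**Figure D5:**
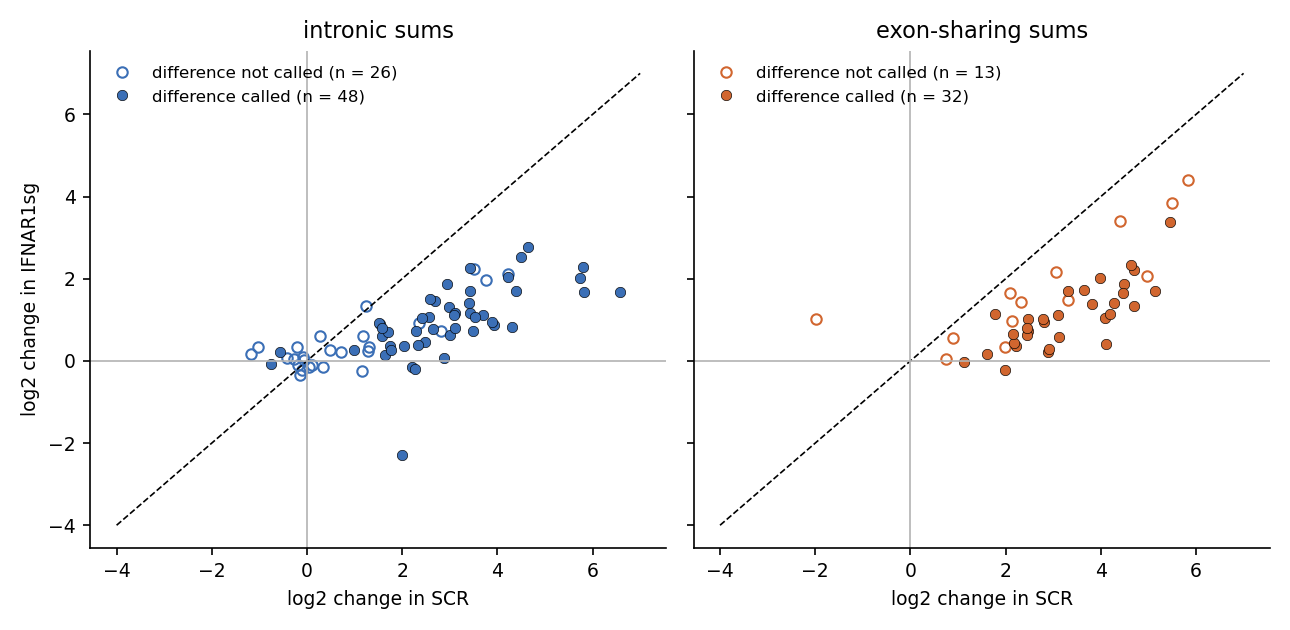
Log2 change with IFNb in SCR (x axis) against IFNAR1sg (y axis) for interferon response genes, as intronic sums (left) and exon-sharing sums (right); each point is a gene, filled where the change differed between genotypes, and the diagonal marks equal changes. Filled points, 48 intronic and 32 exon-sharing, lie below the diagonal except for 2 intronic ones; genes without a standard error are left out.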

How the data were processed

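The authors deposited 1 table of read counts, one whole number per library for each stranded row of the genome, without normalization. The submitters' processing notes name STAR, featureCounts, HOMER, cutadapt, Trimmomatic and Trim Galore with GRCh38 (hg38), without versions or roles; the sources used here do not say how strand and multiply mapped reads were handled. Per the labels' protocols, RNA was collected with J2 and libraries were made with a stranded total RNA kit.

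Rows (5254113, of which 46.1% had 0 reads; median 139 bp) were placed on GENCODE release 29, in which 58207 of 58780 genes matched a current symbol. Counts were summed per gene over intronic, exon-sharing, antisense and downstream rows. Sums and rows were tested with edgeR 4.0.16 in R 4.3.3 (TMM, filterByExpr with minimum count 10, minimum total 15 and proportion 0.7, glmQLFit, glmQLFTest) on all 12 libraries with 1 coefficient per group, leaving 6 residual degrees of freedom. The class difference used 24 columns, 2 per library. The standard error was computed from the weights of the fit and its quasi-likelihood dispersion. TMM factors were 0.855 and 0.869 in SCR IFNb and 0.948 to 1.082 in the other libraries; without them the medians of both classes of sums moved by -0.32.

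On simulated counts for the IFNb comparison in SCR, 101 of 200 changed genes were recovered among intronic sums with 10 false calls among 14442 unchanged genes, 121 of 200 with 9 false calls among exon-sharing sums, 77 of 200 with 2 false calls for the class difference, and 55 of 200 with no false call among 88911 unchanged rows. The simulation gave all features the same fixed spread, as many rises as falls, and no shift of a whole class. It therefore cannot test the scaling on which the split between the classes rests.

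Members and lists were chosen with earlier results of these data known. Named genes are, per class, the 8 rises and 8 falls with the smallest p and no overlap between groups, 5 genes per direction of the class difference, up to 4 members per list with the smallest p (more of the receptor list), and 4 rows per direction; genes without a symbol and some others are not reported here. Alternatives were other scalings and filters, the DESeq2 1.42.0 Wald test, limma 3.58.1, each library left out, and other row limits.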

Additional observations from a re-analysis of the deposited data

Results flagged for a closer look

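The change with IFNb differed between SCR and IFNAR1sg by the test of the difference itself (edgeR, SCR change less IFNAR1sg change, Benjamini-Hochberg) for 619 intronic sums that were higher in SCR and 4143 that were lower, and for 1766 exon-sharing sums that were higher and 113 that were lower. Among intronic sums the difference on the log2 scale was 2.75 for RMI2, 3.10 for IFIT1, 3.52 for CMPK2, 1.94 for IFIH1 and 2.07 for CXCL5. It was -2.05 for ENSA, -1.90 for ABCC1, -1.52 for TXNRD1 and -1.22 for STAT3. Among exon-sharing sums it was 2.98 for OAS2, 3.22 for RIGI, 2.27 for IFI6, 2.06 for MX1 and 1.74 for ADAR. It was -1.22 for H2AZ2 and -1.0 for EIF4B. Both libraries of SCR IFNb also differed from those of IFNAR1sg IFNb in their intronic share of reads (19.4% and 19.6% against 33.7% and 36.8%), and the part of that share in these differences was not tested.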

How the results depend on the processing

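Of 1594 alternative values for named genes, 1543 kept their side of the threshold, 41 were no longer called and 5 became called. Another 5 turned sign with a call in the main fit or the alternative. All 5 came with a class scaled to its own reads (exon-sharing PTPN1 -0.25, DHX9 -0.17 and ASS1 -0.074, intronic PSMA3 0.0097 and IRF2 0.50). Values that turned sign without a call in either fit are counted among the 1543. Exon-sharing IFNAR1 is an example (0.0047, or -0.0032 to 0.0125 with a library left out). Scaling each class to its own reads gave 2555 rises and 2694 falls of intronic sums, 757 and 861 of exon-sharing sums, 753 higher and 655 lower class differences, and genotype differences of 1483 and 1834 (intronic) and 248 and 358 (exon-sharing). Without TMM factors 732 intronic sums rose and 408 exon-sharing sums fell, the genotype difference was higher in 388 intronic and 902 exon-sharing sums and lower in 188 exon-sharing sums, 1794 intronic rows rose and 843 exon-sharing rows fell. With more than 2 exon bases required, far fewer features were tested: 384 exon-sharing sums rose and 44 fell of 1168, the genotype difference was called in 102 and 17, and 429 rows rose and 79 fell of 1334. Among rows, the DESeq2 Wald test called 6714 intronic and 337 exon-sharing falls, and with no filter on low counts 1569 intronic rows rose and 6046 fell, and 2848 exon-sharing rows rose and 280 fell. Leaving out 1 of the 4 libraries in turn, with the lone library of a group assumed to vary like the other groups, left 33 to 43 lower class differences (33 without SCR IFNb replicate 1), 1791 to 2041 rises of intronic rows (1791 and 1903 without SCR IFNb replicate 1 and 2), 6651 to 10732 falls of intronic rows (6651, 6977 and 8727 without SCR IFNb replicate 1, SCR IFNb replicate 2 and SCR DMSO replicate 1) and 335 to 426 falls of exon-sharing rows (335 and 341 without SCR IFNb replicate 1 and 2). For gene sums these ranges were 889 to 955 intronic rises, 4671 to 5167 intronic falls, 2507 to 2741 exon-sharing rises and 183 to 225 exon-sharing falls. The cause of these moves was not tested. Libraries with the same replicate number did not deviate together (correlations of -0.0543 to 0.0849 between pairs of groups), so the numbers were not taken as pairs; with a replicate block 1154 intronic sums rose and 5638 fell, 3074 exon-sharing sums rose and 246 fell, and the genotype difference was 626 and 4178 (intronic) and 1912 and 125 (exon-sharing). The 2 SCR IFNb libraries are the shallowest, and calls at matched depth were not compared. Errors cover only counting error and the spread between libraries of a group, estimated over all 12 libraries and shared between genes.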
